A study of Mus musculus with 3 samples.

Results

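The genes described here encode the proteins of the mitochondrial ribosome. They were chosen by symbol, as every gene whose name begins with Mrpl or Mrps followed by a digit and whose FPKM was at least 1 in at least 1 sample. All 76 genes with such a name passed, of 23361 genes in the files and 10792 that passed the same filter. By symbol 47 belong to the large subunit (Mrpl) and 29 to the small subunit (Mrps). They lie on 17 chromosomes, none of them a sex chromosome. FPKM is the number of fragments mapped to a gene, scaled to the length of its transcript and to the fragments mapped in the library, so it is a level per length.

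Mitochondria carry their own ribosomes, which translate the few proteins still encoded by mitochondrial DNA, all of them core parts of the respiratory chain and the ATP synthase. The mitochondrial ribosomal proteins themselves are encoded in the nucleus, made in the cytosol and imported. Some descend from bacterial ribosomal proteins and others were added in the mitochondrial lineage. The liver is rich in mitochondria, and a loss of oxygen during ischemia stops the respiratory chain that these ribosomes help to build.

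The mRNA of livers of C57BL/6J mice aged 8 to 10 weeks and labelled male was sequenced, 1 library for each of 3 groups. The sham group had the abdomen opened with no vessel clamped. In the warm ischemia (WI) group the vessels and bile duct to the left and median lobes were clamped for 90 min. In the ischemia followed by reperfusion (IR) group the same clamp of 90 min was followed by 120 min of blood flow. All mice had been fasted for 12 h and anesthetized with chloral hydrate. The study had 6 mice per group, but how many of them gave RNA to its library is not stated. No sham group matched the IR group in time, so reperfusion and the added time after surgery cannot be told apart.

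With 1 library per group the variation between mice was not measured and no test of a condition was possible. The error given beside a change (SE) comes from the 95% bounds that the authors' Cuffdiff attached to each FPKM, which cover its model of counting and dispersion only. For the 76 genes the median coefficient of variation implied by them was between 24.1% and 24.7% in a library. A change is the difference in log2(FPKM + 1), which understates the change of low genes. A gene is said to have risen or fallen when FPKM + 1 differed at least 1.5-fold, and otherwise its values are given. Where no rescaling is named, this refers to FPKM as deposited.

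The libraries differed in ways that touch every comparison with the IR sample. Summed FPKM over all genes was 4.76e+05 in sham, 4.88e+05 in WI and 7.12e+05 in IR, and the 10 highest genes held 14.9%, 14.8% and 20.8% of it. Xist, the RNA of the inactive X chromosome, had an FPKM of 18.9, 20.1 and 1.29. The Y-linked Eif2s3y was listed at 0 in sham and WI and at 13.2 in IR, so the sham and WI libraries went against their label of male. Neither could be left out, since each is the only library of its group. Of the markers of other cells, summed neutrophil FPKM was 22.6, 17.3 and 415 (3 of 3 genes higher in IR than in WI), that of erythroid cells 419, 395 and 1184 (3 of 3) and that of Kupffer cells and macrophages 258, 146 and 97.3 (2 of 5). Among the neutrophil genes Camp did not pass the filter, at 0.152, 0.0673 and 0.0953. The summed hepatocyte markers were at 25544, 23078 and 33972 (4 of 6 genes higher in IR than in WI). Apoa2 (17704) and Apoa1 (8799), the highest of them in IR, had lower bounds of 0 there, and Cps1 was lower in IR (811 to 677). Alb was listed at 0 in each sample because its locus held too many fragments to process, so the sums over all genes leave it out. In such bulk tissue, fewer cells of a type and less RNA per cell cannot be told apart, and the part of these differences in the results below was not tested.

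Sequences before the start sites of 5 members are shown because the text returns to them, Mrps18b and Mrpl34 for the greatest changes, Mrpl12 for the highest level, and the pair Mrpl46 and Mrps11 for a shared start region. Capitals mark motifs known to bind factors that act on many mitochondrial genes. They are GGGCGG for SP1, CCGGAAG for GABPA of the ETS family, and GCGCANGCG for NRF1, each on either strand. The sequences are from RefSeq, build GRCm38.p6 (the build of mm10), written 5′ to 3′ on the gene's strand. Each of the first 3 holds the 150 bases before the start.
Mrps18b (chr17:35916441-35916590, minus strand): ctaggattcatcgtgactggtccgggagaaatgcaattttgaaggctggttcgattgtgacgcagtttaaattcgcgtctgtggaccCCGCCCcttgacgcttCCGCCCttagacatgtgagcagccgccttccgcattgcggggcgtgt
Mrpl34 (chr8:71464776-71464925, plus strand): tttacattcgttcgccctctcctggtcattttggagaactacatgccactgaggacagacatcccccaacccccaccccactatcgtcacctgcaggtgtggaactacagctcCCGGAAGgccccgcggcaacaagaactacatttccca
Mrpl12 (chr11:120484487-120484636, plus strand): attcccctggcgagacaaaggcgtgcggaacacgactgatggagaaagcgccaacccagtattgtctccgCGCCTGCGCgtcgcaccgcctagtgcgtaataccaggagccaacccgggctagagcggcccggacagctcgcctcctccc
Between the starts of Mrpl46 and Mrps11 (chr7:78783090-78783130, strand of Mrps11): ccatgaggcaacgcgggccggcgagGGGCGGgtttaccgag

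All 76 members were measured with status OK in the 3 samples, and 74 of them had an FPKM of at least 5 in every sample. Their median FPKM was 17.8 in sham, 20.5 in WI and 23.7 in IR, where the median of all genes that passed was 6.06, 6.06 and 6.33. Summed over the members FPKM was 1740, 1959 and 2441, which was 0.366%, 0.401% and 0.343% of the summed FPKM of all genes. The members' sum was thus highest in IR while their share of the total was highest in WI.

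The highest member in each sample was Mrpl12, a large subunit stalk protein, with an FPKM of 105 in sham, 114 in WI and 130 in IR. Mrpl52 followed by its mean over the samples, at 74.5, 88.0 and 124. Mrps21, a small subunit protein with a bacterial homologue, had 66.8, 69.4 and 80.9. These 3 and the next in order, Mrpl14 (52.7, 69.7 and 84.8) and Mrpl30 (54.6, 56.6 and 85.7), were higher in IR than in sham before rescaling. At the other end of the order stood Mrpl19, with an FPKM of 1.82, 2.05 and 2.21. Mrps25 had 3.52, 3.16 and 2.84, Mrpl35 5.07, 5.74 and 6.58, Mrpl41 5.91, 6.01 and 8.25, and Mrpl11 5.97, 6.29 and 8.49. When the members were ordered by level, the 95% bounds of all 75 pairs of neighbours overlapped in each sample. The order was nonetheless close to the same in the 3 libraries, with a Spearman correlation of 0.98 across the 76 genes for each pair of libraries, which share their lengths and sequence composition.

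**Figure D1:**
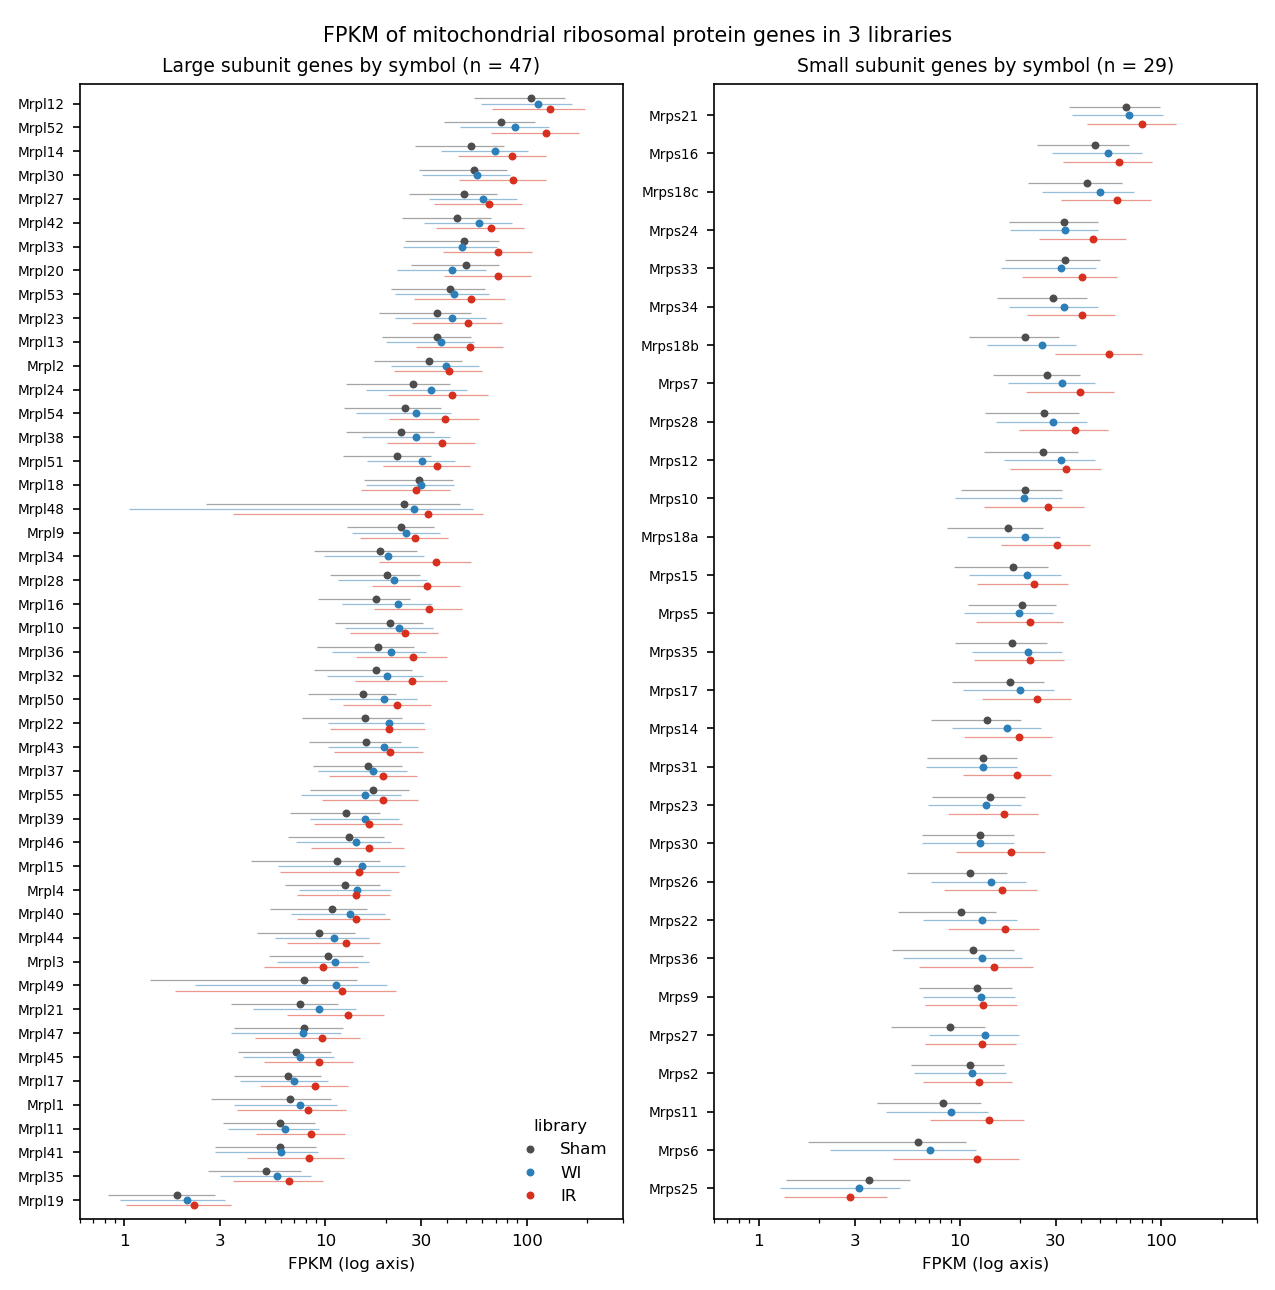
FPKM on a log axis for each of the 47 large subunit genes (left) and 29 small subunit genes (right) by symbol, ordered by mean; points are the 1 library of each group and lines its 95% bounds from Cuffdiff. Levels span from Mrpl19 near 2 to Mrpl12 at 105 to 130, and for Mrps18b the IR point (55.2) lies farther from the others than for any other member.

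Warm ischemia against sham asks what 90 min without blood flow did to these transcripts. The members were slightly higher in WI, with a median change of 0.15, or 1.11-fold, against 0.02 for all genes. Of 76 members 66 were higher, against a background of 52.5% of all genes, and 61 after rescaling the samples to a common sum or by the median ratio. The change of 64 members lay above that of the median gene, where the background is 50%. No member rose (background 3.14%) or fell (background 4.27%), and 0 differed 2-fold (background 1.85%). The 95% bounds overlapped for every member (background of bounds that do not overlap, 0.676%), and the 95% interval of the change, from its SE, held 0 for each of them (background of intervals that leave out 0, 2.51%). The median SE of a member's change was 0.48, larger than any single increase but that of Mrps27.

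Mrps27, a small subunit protein of the pentatricopeptide repeat kind, had an FPKM of 8.98 in sham and 13.4 in WI. The difference was 0.52 on the log2 scale (SE 0.46), and the bounds of 4.57 to 13.4 and 7.02 to 19.7 overlapped. Mrpl49 followed, at 7.83 and 11.2 (difference 0.47, SE 0.76), and its locus overlaps that of Syvn1, itself at 10.5 and 12.8. Mrpl14 (0.40, SE 0.48), Mrpl51 (0.39, SE 0.46) and Mrpl15 (0.38, SE 0.60) were next. The 95% interval of each of these 5 differences held 0. The 10 members that were lower in WI were lower under both rescalings as well, which had to follow because both lower WI relative to sham. The lowest was Mrpl20 with an FPKM of 49.9 in sham and 42.8 in WI (-0.22, SE 0.48). Mrpl55 (-0.13), Mrps25 (-0.12), Mrps33 (-0.07) and Mrps23 (-0.06) came after it.

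Reperfusion against warm ischemia asks what followed the return of blood. In FPKM as deposited the members were higher in IR, with a median change of 0.27 (1.20-fold) against 0.03 for all genes. The direction held after rescaling by the median ratio, with a median of 0.22, but turned when the samples were rescaled to a common sum, where the median was -0.27. As deposited, 70 members were higher (background 52.4%), 67 by the median ratio and 8 after rescaling to a common sum. The change of 68 was above that of the median gene (background 50%), and of 64 after rescaling to a common sum. A factor per library can alter this count only through the added 1. As deposited 6 members rose, or 7.89%, fewer than the background of 12.4%, and 0 fell (background 7.4%). By the median ratio 4 rose, or 5.26% (background 11.4%), and 0 fell (background 8.48%). After rescaling to a common sum 0 rose (background 6.04%) and Mrpl3, Mrpl15 and Mrpl18 fell, 3.95% of the members (background 38.3%). Mrps18b was the 1 member past 2-fold (background 7.21%) and the 1 member whose 95% interval left out 0 (background 9.52%). The 95% bounds of each member overlapped between the samples (background of bounds that do not overlap, 3.61%).

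Mrps18b, 1 of 3 mammalian versions of the bacterial ribosomal protein S18, stood at an FPKM of 25.7 in WI (95% bounds 13.6 to 37.7) and 55.2 in IR (29.6 to 80.9). It rose by 1.08 on the log2 scale (SE 0.47), and was 0.55 higher after rescaling to a common sum, which is under the 1.5-fold limit of 0.58. Mrpl34, a short large subunit protein, rose from 20.4 to 35.5 (0.77, SE 0.50). Mrpl20, the member lowest in WI relative to sham, rose from 42.8 to 72.1 (0.74, SE 0.48). Mrps6 rose from 7.15 to 12.2 (0.70, SE 0.61), Mrpl30 from 56.6 to 85.7 (0.59, SE 0.48) and Mrpl33 from 47.8 to 72.4 (0.59, SE 0.49). These 6 genes, with Mrps11 and Mrps31, were the 8 that stayed higher in IR under each of the 3 scalings. For the 6 that rose this had to follow, because neither rescaling lowered IR by 1.5-fold relative to WI. Lower in IR under each scaling were Mrpl3 with 11.1 in WI and 9.75 in IR (-0.17, SE 0.47), Mrps25 (-0.12), Mrpl18 (-0.07), Mrpl15 (-0.06), Mrps27 (-0.05) and Mrpl4 (-0.02). None of these reached its SE, and their direction had to hold because both rescalings lower IR relative to WI.

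Between sham and IR, both steps together, the median change of the members was 0.41 (1.33-fold) in FPKM as deposited against 0.05 for all genes, and -0.13 after rescaling to a common sum. As deposited 73 members were higher (background 54.4%), also 73 by the median ratio, and 18 after rescaling to a common sum. The change of 73 lay above that of the median gene (background 50%), and of 72 after rescaling to a common sum, a count that can differ only through the added 1. As deposited 16 members rose, or 21.1% (background 14.3%), and 0 fell (background 9.49%), with Mrps18b again the 1 member past 2-fold (background 7.5%) and the 1 whose interval left out 0 (background 10.6%). No member had bounds that did not overlap (background 3.82%). By the median ratio 10 rose, or 13.2% (background 11.6%). After rescaling to a common sum Mrps18b alone rose (background 5.34%), while Mrpl3, Mrpl18 and Mrps25 fell, 3.95% of the members (background 39.7%).

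The 5 highest changes from sham to IR were those of Mrps18b (21.2 to 55.2, 1.34, SE 0.47), Mrpl34 (18.7 to 35.5, 0.89, SE 0.51), Mrps6 (6.22 to 12.2, 0.87, SE 0.62), Mrpl16 (17.7 to 32.7, 0.85, SE 0.47) and Mrps18a (17.3 to 30.3, 0.78, SE 0.48). All of these kept their direction under both rescalings, which had to follow because neither lowered IR by 1.5-fold relative to sham. After rescaling to a common sum Mrps18b was still 0.79 higher. The other genes that rose were Mrpl52, Mrpl21, Mrps11, Mrps22, Mrpl14, Mrpl38, Mrpl54, Mrpl30, Mrpl28, Mrpl51 and Mrpl24, with changes from 0.62 to 0.73. At the low end Mrps25 went from 3.52 to 2.84 (-0.24, SE 0.45), Mrpl3 from 10.3 to 9.75 (-0.07, SE 0.47) and Mrpl18 from 29.2 to 28.3 (-0.05, SE 0.47). These 3 were lower under each scaling, as they had to be because both rescalings lower IR relative to sham. Mrps9 (0.09) and Mrps5 (0.12) were the least different of those higher in IR.

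**Figure D2:**
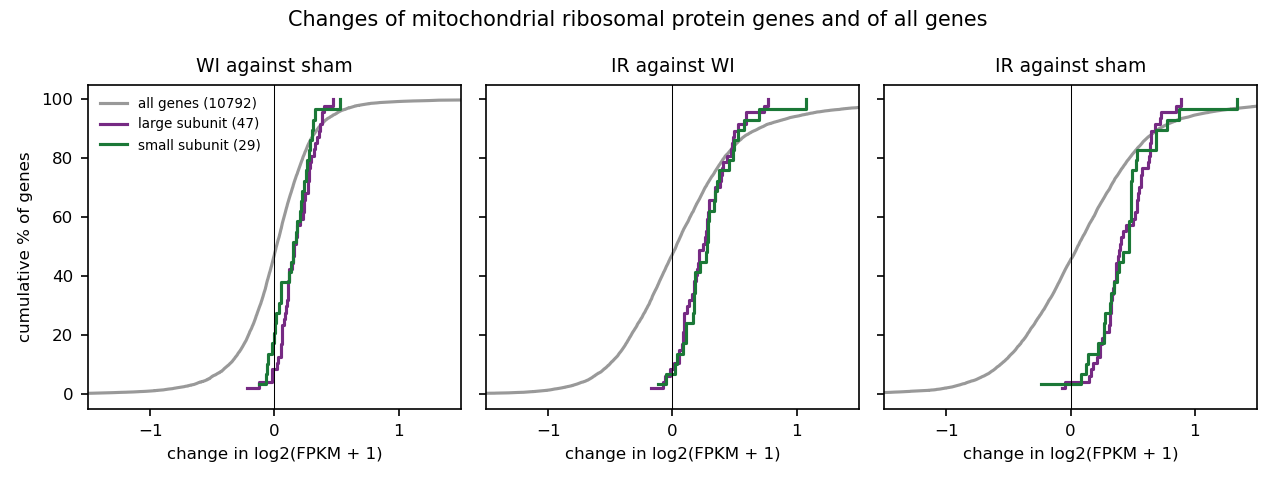
Cumulative share of genes (percent) against the change in log2(FPKM + 1) for the 3 comparisons, for all 10792 genes and for the large and small subunit genes. The curves of both subunits lie to the right of that of all genes over most of their range, with higher medians for the members (0.15, 0.27 and 0.41 against 0.02, 0.03 and 0.05), and cross it toward the upper end, where 0% of members against 3.14% of genes rose from sham to WI and 7.89% against 12.4% from WI to IR; rescaling to a common sum moves all curves of the comparisons with IR to the left and brings the members' medians to -0.27 and -0.13.

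Rescaling to a common sum therefore turned the direction of the members in comparisons with IR, while rescaling by the median ratio did not. Their place among all genes could hardly move, since a factor per library shifts every gene alike except through the added 1. The summed FPKM of IR was 1.4601 times that of WI and 1.4975 times that of sham. Alb, listed at 0 in each sample, is missing from these sums, and how it would alter the factors is unknown. A rescaling to a common sum lowered every gene of IR by the factor of each comparison and moved the median of all genes to -0.45 in both. Every member that rose as deposited was still higher after it, which had to follow because both factors are under the 1.5-fold limit. Relative to the median of all genes, the members' median was 0.24 higher in IR than in WI as deposited, 0.19 after that rescaling and 0.23 after rescaling by the median ratio. From sham to IR the same 3 values were 0.36, 0.32 and 0.34, and from sham to WI 0.14, 0.14 and 0.13.

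The change of a gene also moved with the length of its transcript, and the members are short, with a median of 1213 bases against 2860 for the 10093 genes with a length. From sham to IR the median change of all genes was 0.49 for transcripts under 1000 bases, 0.27 from 1000 to 2000, 0.05 from 2000 to 4000 and -0.21 at 4000 bases or more. For the members in the same classes it was 0.49 (26 genes), 0.40 (31), 0.35 (13) and 0.25 (6). The shortest members thus had the median of other short genes, and the longer members higher medians than others of their length, though the last classes hold few members. From WI to IR the shortest members had a median of 0.31 where all short genes had 0.37. From sham to WI the members lay above all genes in each class, at 0.18, 0.18, 0.14 and 0.13 against 0.11, 0.07, 0.01 and -0.04. Level moved with the change as well, the median change of all genes from sham to IR being -0.09 for a mean FPKM under 5 and 0.37 for 50 or more. The part of length and level in the members' changes was not tested.

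**Figure D3:**
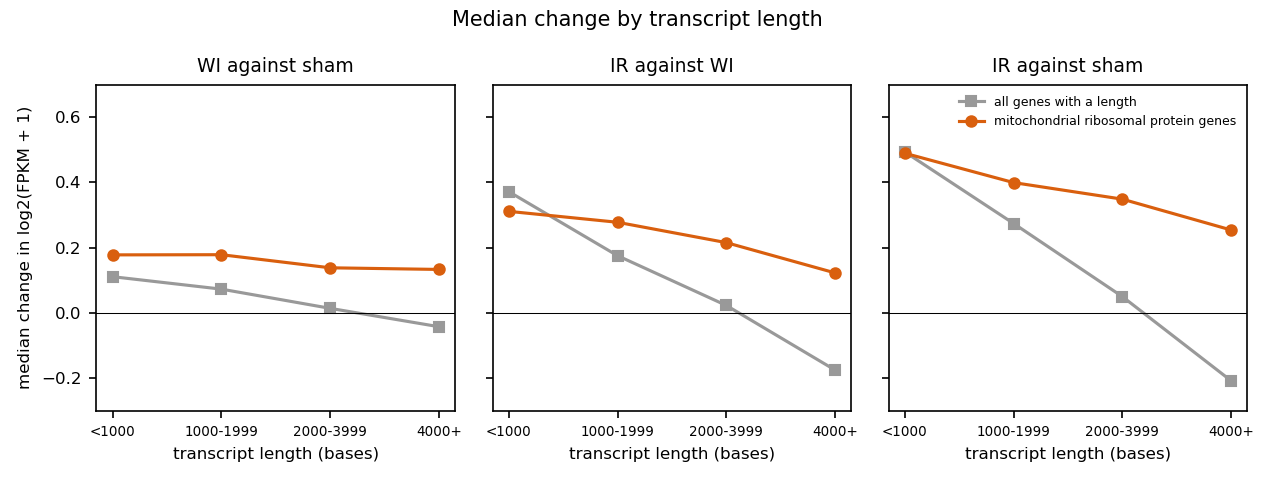
Median change in log2(FPKM + 1) of all genes with a known length (gray squares) and of the mitochondrial ribosomal protein genes (orange circles) in 4 classes of transcript length, in FPKM as deposited. In the comparison of IR with sham the lines start together at 0.49 under 1000 bases and part to 0.25 and -0.21 at 4000 bases or more, where 6 members lie.

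The medians of the small and large subunits differed by less than 0.1 in each comparison, and the difference was not tested. From sham to WI the median change was 0.15 for the 29 small subunit genes and 0.16 for the 47 large subunit genes, with 23 and 43 of them higher. From WI to IR the medians were 0.28 and 0.25 as deposited (27 and 43 higher) and -0.25 and -0.29 after rescaling to a common sum. From sham to IR they were 0.47 and 0.40 as deposited (28 and 45 higher) and -0.10 and -0.14 after rescaling. The difference of the medians as deposited, small minus large, was 0.07 in this comparison, and under the alternatives it ran from 0.04 to 0.07. The summed FPKM of the small subunit was 0.530 of that of the large subunit in sham, 0.519 in WI and 0.519 in IR, while the median FPKM of the small subunit was 0.997 of that of the large subunit in sham, 0.964 in WI and 0.828 in IR. No scaling of a library alters these ratios. As deposited, 5 of 29 small subunit genes (17.2%) and 11 of 47 large subunit genes (23.4%) rose from sham to IR, against 14.3% of all genes. By the median ratio 5 small (17.2%) and 5 large subunit genes (10.6%) rose, against 11.6%, so the order of the subunits turned. After rescaling to a common sum, 1 small (3.45%) and 0 large subunit genes rose, against 5.34%.

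Symbols do not always give the place of a protein. In structures of the mammalian mitochondrial ribosome the products of Mrps30 and Mrps18a sit in the large subunit, and that of Mrps36 is a component of a dehydrogenase complex and not of the ribosome. Mrps30 had an FPKM of 12.6 in sham, 12.6 in WI and 18.0 in IR, and Mrps36 had 11.6, 12.8 and 14.7. With these 3 placed accordingly, 26 small and 49 large subunit genes had medians of 0.16 and 0.16 from sham to WI, 0.28 and 0.26 from WI to IR and 0.45 and 0.40 from sham to IR. The 48 members with a bacterial homologue and the 27 specific to mitochondria had medians of 0.41 and 0.42 from sham to IR. From sham to WI the classes lay apart in the large subunit, a difference that was not tested, with 0.14 for 31 genes with a bacterial homologue and 0.23 for 18 specific ones, all 18 of them higher as deposited and 16 after rescaling. The 9 specific genes of the small subunit, at a median of 0.18, were split in that step, with 5 higher and 4 lower. Among them Mrps27 was highest and Mrps25 lowest.

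The 3 versions of the S18 protein differ most in the reperfusion step. Mammalian mitochondrial ribosomes hold the product of Mrps18b and of Mrps18c in the small subunit, and that of Mrps18a in the large subunit. Mrps18c, the highest of them in each sample, had an FPKM of 42.9 in sham, 49.5 in WI and 60.5 in IR. Mrps18a had 17.3, 21.2 and 30.3, and Mrps18b 21.2, 25.7 and 55.2. From sham to WI the 3 genes differed by similar amounts (0.20, 0.28 and 0.26). From WI to IR the changes were 0.28 for Mrps18c, 0.50 for Mrps18a and 1.08 for Mrps18b, so that Mrps18b, far below Mrps18c in WI, stood near it in IR. The SE of each change was 0.47 to 0.49. Ppp1r10 and Atat1, the nearest genes to Mrps18b, had no such change, with an FPKM in WI and IR of 9.83 and 9.23 for Ppp1r10 and 2.58 and 2.34 for Atat1.

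Of the members listed for a known role in decoding, assembly or disease, Mrps22 was the one that rose. Mrps12, the protein at the decoding site whose bacterial counterpart mutates in streptomycin resistance, had an FPKM of 25.9, 31.9 and 33.9 in sham, WI and IR. Mrps5, also near the decoding site, had 20.4, 19.7 and 22.3. Mrps7, which binds the small subunit rRNA early in assembly, had 27.2, 32.2 and 39.7. All 3 were highest in IR as deposited, and none rose. Mrps16 (46.9, 54.8 and 61.7), Mrps22 (10.1, 12.9 and 16.8) and Mrps34 (29.0, 33.0 and 40.5) are mutated in human mitochondrial disease, and among them Mrps22 rose from sham to IR (0.69, SE 0.48). On the large subunit Mrpl44, whose human counterpart is mutated in an infantile cardiomyopathy, had 9.30, 11.1 and 12.6. Mrpl3, mutated in a similar disease, had 10.3, 11.1 and 9.75, and did not share the higher level in IR. The genes of the stalk proteins Mrpl10 (20.8, 23.3 and 24.7), Mrpl11 (5.97, 6.29 and 8.49) and Mrpl12 (105, 114 and 130) differed by more than 10-fold in level. Their changes from sham to IR were 0.24, 0.45 and 0.31. Mrpl41, a large subunit protein also linked to apoptosis, had 5.91, 6.01 and 8.25.

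Most members took the same path over the samples. As deposited, 61 of 76 were higher in WI than in sham and higher again in IR, a path of 25.6% of all genes. Another 9 were lower in WI and higher in IR (26.9% of all genes), among them Mrpl20, Mrpl33 and Mrps31. Mrpl3, Mrpl4, Mrpl15, Mrpl18 and Mrps27 were higher in WI and lower in IR (27.0% of all genes), and Mrps25 was lower at both steps (20.6%). IR was the highest sample for 70 members and for 44.3% of all genes. By the median ratio 67 members were higher in IR than in WI, but after rescaling to a common sum only 8 were.

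**Figure D4:**
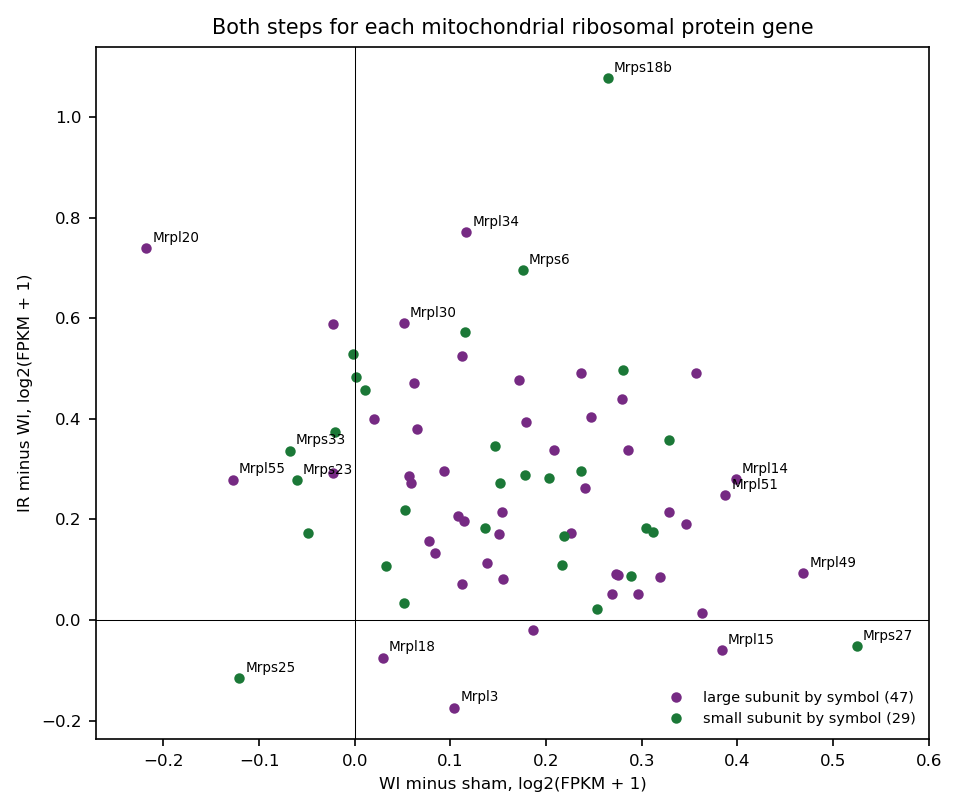
Change in log2(FPKM + 1) from sham to WI (horizontal) and from WI to IR (vertical), as deposited, for each member, colored by subunit; names mark the 5 highest and 5 lowest members of each step. Most points, 61 of 76, lie right of and above the zero lines, with Mrps18b at 1.08 on the vertical axis and Mrps27 at 0.52 on the horizontal one; rescaling to a common sum would leave 8 points above the horizontal line.

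The locus of 9 members overlaps that of another gene, so reads could have been divided between them, and strand was not stated to be used. These are Mrpl19, Mrpl24, Mrpl41, Mrpl48, Mrpl49, Mrpl53, Mrps6, Mrps25 and Mrps27. Without them the median change of the other 67 was 0.16 from sham to WI, 0.27 from WI to IR and 0.40 from sham to IR as deposited, close to the values of all members. Mrpl48, whose locus overlaps Rab6a, had the widest bounds relative to its level, with an FPKM of 24.7 in sham (2.54 to 46.8). Mrps25 overlaps Nr2c2, a nuclear receptor at 2.28, 1.76 and 0.591 in the 3 samples, which was also lower in IR.

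Some members start beside another gene, often in the opposite direction. Mrpl46 and Mrps11 face away from each other with 41 bases between their loci, printed above, and an SP1 motif within them. Mrpl46 had an FPKM of 13.0, 14.1 and 16.4 in the 3 samples and Mrps11 had 8.28, 9.06 and 14.0. From sham to WI both changed by 0.11 to 0.12. From WI to IR the change was 0.21 for Mrpl46 and 0.57 for Mrps11, each with an SE of 0.48. Mrps12 lies 186 bases from Sars2, the mitochondrial seryl-tRNA synthetase, and Sars2 had 2.85, 3.32 and 4.08, a change of 0.40 from sham to IR where Mrps12 had 0.38. Mrpl47 lies 307 bases from Ndufb5, a subunit of complex I, at 79.3, 83.7 and 114.

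Further parts of mitochondrial translation were set beside the members, from lists of genes by function. They come from the same libraries, so the values are given side by side with no test. Of 7 other subunits of the mitochondrial ribosome with names outside the rule (such as Mrp63, Dap3, Ict1 and Gadd45gip1), the median change was 0.15 from sham to WI and 0.47 from WI to IR as deposited, and -0.07 in the latter after rescaling to a common sum. Of these 7 genes, 2 rose from sham to IR, Gadd45gip1 (8.80 to 20.3) and Mrp63 (6.76 to 11.3), and 0 fell. Ict1, the peptidyl-tRNA hydrolase built into the large subunit, had 20.6, 23.0 and 27.0.

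Of the factors working on the ribosome, all 14 initiation, elongation, termination and mRNA-binding factors of mitochondrial translation were higher in WI than in sham. The background was 52.5% of all genes. The factors had a median of 0.25, and 13 were higher after either rescaling. In this step 0 of the 14 rose or fell (background 3.14% and 4.27%). In the reperfusion step 5 of 14 were higher (52.4% of all genes), with a median of -0.18 as deposited and -0.68 after rescaling to a common sum, and Lrpprc, which stabilizes mitochondrial mRNA, fell from 24.3 to 15.5. Tufm, the elongation factor Tu, had 28.3, 39.2 and 45.8 and rose from sham to IR (0.68, SE 0.49). Of 17 mitochondrial aminoacyl-tRNA synthetases, which charge tRNA with amino acids, 16 passed the filter. All 16 were higher in WI under each scaling (median 0.21 as deposited), against 52.5% of all genes as deposited. As deposited 0 of the 16 rose or fell in WI (background 3.14% and 4.27%). After rescaling to a common sum Cars2 and Pars2 rose (background 3.41%). Wars2, which did not pass, had 0.971 in sham and 0.958 in WI. From WI to IR the 16 had a median of -0.08 as deposited and -0.53 after rescaling to a common sum, with 7 higher as deposited, or 43.8% against 52.4% of all genes. Of these 16, 1 (6.25%) rose from sham to IR as deposited, Ears2 (2.31 to 4.06), against 14.3% of all genes. The transcripts of both groups are longer than those of the ribosomal proteins, with a median of 2623 and 3184 bases against 1213.

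Among 25 genes for ribosome assembly and rRNA modification the median change was 0.12 from sham to WI and 0.06 from WI to IR as deposited (-0.44 after rescaling to a common sum). Mettl17, a methyltransferase-like factor of the small subunit, rose in WI (2.42 to 4.23). From WI to IR 2 of 25, or 8%, rose and 0 fell, where 12.4% and 7.4% of all genes did. Ddx28, an RNA helicase of large subunit assembly, had 7.19, 4.58 and 22.1 (2.05 from WI to IR, SE 0.46), and its bounds in WI (2.14 to 7.01) and IR (11.9 to 32.3) did not overlap. Trmt61b, a tRNA and rRNA methyltransferase, had 2.09, 1.60 and 6.53. Mpv17l2 rose from sham to IR (10.5 to 17.5), as did both of these.

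Genes for mitochondrial stress and protein import included 3 of 8 that rose from WI to IR and 4 of 8 that rose from sham to IR, where 12.4% and 14.3% of all genes did. After rescaling to a common sum 2 rose and 2 fell from WI to IR, with a median of 0.40 as deposited and -0.13 after it. Hspe1 and Hspd1, the chaperonins of the matrix, had 187, 212 and 509, and 179, 194 and 352. Clpx, the partner of the protease Clpp, had 30.6, 21.1 and 50.6, and Clpp had 22.5, 24.7 and 37.4. Among 14 nuclear regulators 6 rose and 1 fell from WI to IR as deposited, where 12.4% and 7.4% of all genes did, and 4 rose and 4 fell after rescaling to a common sum. Their median was 0.12 as deposited and -0.32 after it. Myc, which acts on ribosome production, had 7.42, 2.03 and 14.5, falling in WI and rising in IR. Atf4 (35.6, 42.6 and 96.4), Atf5 (54.2, 67.7 and 119) and Ddit3 (3.97, 4.81 and 19.4), all of the mitochondrial and integrated stress responses, rose, and so did Pprc1 (1.56, 1.29 and 5.07) and Gabpb1 (2.23, 2.43 and 5.55). Gabpb2 fell (2.84, 2.72 and 1.45) and Ppargc1a, a coactivator of mitochondrial biogenesis, fell from sham to IR (4.58, 3.26 and 2.02). Nrf1 (2.60, 2.15 and 2.74), Yy1 (16.2, 16.9 and 16.9), Sp1 (5.49, 5.01 and 5.02) and Gabpa (9.54, 9.19 and 6.42), whose motifs were searched for, neither rose nor fell as deposited. After rescaling to a common sum Gabpa fell from WI to IR and from sham to IR, and Sp1 from sham to IR. The 4 measured genes of mitochondrial transcription, Polrmt, Tefm, Tfam and Tfb2m, neither rose nor fell in any comparison as deposited, while Tfam fell from WI to IR after rescaling to a common sum, and Tfam and Tfb2m from sham to IR. Genes encoded by mitochondrial DNA were not analysed here.

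Compared with 2 larger groups of like genes, the mitochondrial ribosomal proteins lay between all genes and both groups in the reperfusion step. The 80 cytosolic ribosomal protein genes had a median change of 0.03 from sham to WI and 0.53 from WI to IR as deposited (-0.01 after rescaling to a common sum). The 77 subunits of the respiratory chain, a group that here includes the ATP synthase, had 0.19 and 0.37 (-0.17 after rescaling). The members, with 0.15 and 0.27 (-0.27 after rescaling), were thus like the respiratory chain in the first step, where the cytosolic ribosome was near all genes, and lower than both groups in the next. The median transcript was 860 bases for the cytosolic ribosomal proteins and 875 for the respiratory chain, against 1213 for the members. The differences between the groups were not tested.

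**Figure D5:**
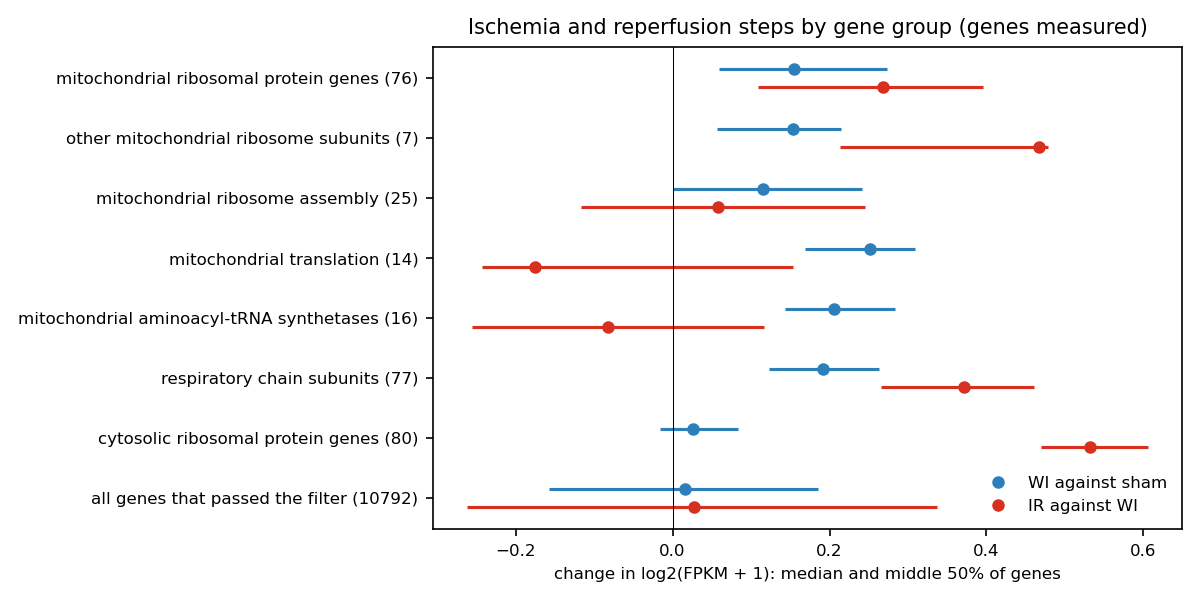
Median (point) and middle 50% of genes (line) of the change in log2(FPKM + 1), as deposited, from sham to WI (blue) and from WI to IR (red) for 8 gene groups, with the number of genes measured. The ribosomal and respiratory chain groups have higher medians in the red step, up to 0.53 for the cytosolic ribosome, while translation factors (-0.18) and synthetases (-0.08) lie below 0; rescaling to a common sum brings every red median below 0.

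The start regions of the members were searched for 5 motifs in the 250 bases before and 50 after the start, on both strands. RefSeq gave a sequence for 67 of the 76. The NRF1 motif was in 15 of them (22.4%, against 14.0% of 8093 genes that passed the filter), CCGGAAG of the ETS family in 23 (34.3% against 19.2%) and AAGATGGCG, bound by YY1, in 8 (11.9% against 3.5%). SP1 motifs were in 33 (49.3% against 64.5%) and CACGTG, the E-box bound by Myc, in 5 (7.46% against 10.6%). None of the 67 had TATAA in the 50 bases before the start, against 3.14% of genes that passed. The median GC content was 58.0% against 60.7%.

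In the sequences printed above, Mrpl12 holds an NRF1 motif that begins 80 bases before its start and Mrpl34 an ETS motif 37 bases before it. Mrps18b holds a pair of SP1 motifs 63 and 47 bases before its start and, outside the window shown, an NRF1 motif that begins 224 bases before it and an ETS motif after it. From sham to IR the median change as deposited was 0.38 for members with an NRF1 motif and 0.43 for those without, 0.40 and 0.41 for the ETS motif, and 0.50 and 0.39 for YY1. For SP1 the medians were 0.39 and 0.41, and for the E-box, present in 5 members, 0.49 and 0.40. These differences were not tested. A match of letters is a description of the sequence and does not show that a factor was bound.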

How the data were processed

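Per the labels and the study's methods, the authors mapped the reads to mm10 with TopHat2 2.0.9 and computed FPKM per gene with its 95% bounds using Cuffdiff of Cufflinks 2.0.2. Whether strand was used is not given in the sources used here. The deposited tables hold FPKM without counts, so the depth behind a gene is unknown. The files held 1 library per group.

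From them, log2(FPKM + 1) was compared between samples over the 10792 genes whose FPKM reached 1 in some sample. SEs were derived from the bounds. With 1 library per group no test of a condition, replicate block or check of batches was possible. The members, gene lists and named genes were chosen with earlier results of these data known. Named were the 5 highest and lowest members by level and by change, those past 2-fold, members with a known role and list genes past 1.5-fold. Alternatives were the pseudocount, the filter, rescaling by the median ratio or to a common sum (TPM), overlapping loci, the fold limit and the subunit assignment. Values relative to the median of all genes, the 95% interval of a change and the classes of length and level were added after the data were seen. Transcript lengths came from the NCBIM37 annotation, joined by symbol for all 76 members, and coordinates and promoters from mm10 (RefSeq GRCm38.p6). The scripts were tested on simulated data. The tools were pandas 2.3.3, numpy 2.4.6, matplotlib 3.10.9 and scipy 1.17.1 under Python 3.11.15.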

Additional observations from a re-analysis of the deposited data

How the results depend on the processing

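Of 132 alternative values, 118 stayed within the limits set for a move: 1.5 times for a count, and the 95% interval of the median over genes for a median. That interval treats genes as independent and is a yardstick, not a test. The settings with no filter, with FPKM of at least 1 in every sample and with status OK kept the same 76 genes. Their values repeat the main ones and could not move, so the count of 118 overstates how much was tried. For the difference between the small and large subunit medians the limits joined the far ends of the intervals of both subunits, which is wider than an interval of the difference. All 33 values stayed within these wide limits, so this says little, and values relative to the median of all genes could not alter it. From sham to WI, where the difference was -0.0035, it ran from -0.02 to 0.0086 and changed sign under 2 alternatives, the FPKM limit of 5 and the assignment by structure. Smaller pseudocounts gave 7 and 18 members changed at least 1.5-fold from WI to IR and from sham to IR in place of 6 and 16, and leaving out overlapping loci 5 and 14. Rescaling to a common sum turned the median change to -0.27 from WI to IR and -0.13 from sham to IR, with 8 and 18 members higher. Of the 3 and 4 members then changed at least 1.5-fold, 3 and 3 were lower and 0 and 1 higher. Rescaling by the median ratio gave a median of 0.33 from sham to IR, with 10 members changed at least 1.5-fold, all higher. With a limit of 2-fold, 1 member was called in each comparison with IR, with a 95% interval that leaves out 0, added after the data were seen, 1 in each, and with bounds that do not overlap 0. No paired analysis was possible because each group has 1 library, and for the same reason no library could be left out. Cuffdiff's bounds, near a coefficient of variation of 24%, limit what can be seen of a single member, and variation between mice was not measured.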
